A study of Mus musculus with 40 samples.

Results

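The genes described here encode the proteins of the cytosolic ribosome, chosen by gene symbol: Rpl or Rps followed by a number with an optional paralog letter, together with the P stalk genes Rplp0, Rplp1 and Rplp2 and the small subunit gene Rpsa. Rps6 kinase genes and symbols marked as pseudogenes were left out, and a mean normalized count of 10 or more in the table was required. This gave 83 genes of the 20078 in the series, 81 of them in all 4 tables, with Rpl3l and Rpl10l missing from some. The female liver and male liver tables held 81 members each, while 82 were in the table of female gonadal white adipose tissue (gWAT) and 83 in that of male gWAT. A further 4 and 2 matching symbols in liver of females and males, and 5 and 6 in gWAT of females and males, fell below the mean of 10 and were not tested.

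Offspring of nicotine-exposed male mice were compared with offspring of control-exposed males, in liver and in gWAT, the fat pad beside the reproductive organs. All animals were C57BL/6J mice, an inbred laboratory strain, and the exposure was that of the father. The 40 labelled samples form 8 groups of 5, one for nicotine and one for control in each tissue of each sex, and all carry the same batch label. The table headers call the control DMSO. The male gWAT table holds 4 control columns without a match to single labelled samples. The labels give no age, and do not say how many fathers or litters the animals came from, so the p-values measure the spread between these samples. Expression was read by sequencing a tag at the 3′ end of polyadenylated RNA, and values are the authors' DESeq2 normalized counts, scaled within each table.

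The ribosome is built from ribosomal RNA and many small, basic proteins arranged in a large and a small subunit, and the proteins are made in matched amounts. Their messenger RNAs are short, abundant and usually start with a tract of pyrimidines, the TOP motif, through which the mTORC1 kinase and the RNA-binding protein Larp1 adjust their translation and stability to nutrients. In fat tissue, ribosomal protein transcripts come from adipocytes and also from the immune, stromal and vascular cells around them, so in bulk RNA fewer cells of a type and less RNA per cell cannot be told apart.

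Promoter sequence from RefSeq (GRCm38.p6) was available for 62 of the 83 genes, with 74 annotated starts. The letters CTTTCC, a core of the TOP motif, occurred on the gene's strand between 50 bases before and 50 bases after the start in 28.4% of these windows, against 4.69% of 32851 windows of all genes. The longer CTCTTTC, which overlaps it in part, was in 18.9% of the members' windows and 1.37% of all. CCGGAAG, the core bound by ETS family factors, read on both strands between 250 bases before and 50 bases after the start, was in 35.1% against 8.86%. AAGATGG, a core of the YY1 motif read the same way, was in 16.2% against 6.34%. A match is a description of the letters and not a binding site. The windows below run from 50 bases before to 30 bases after the start of genes that the female gWAT results turn on, of which 8 were lower and Rpl7l1 was higher after paternal nicotine. Capitals mark these letters for the TOP core, the ETS core on either strand and the YY1 core.
Rpl37a: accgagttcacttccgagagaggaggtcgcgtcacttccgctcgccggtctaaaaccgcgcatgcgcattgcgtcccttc
Rpl41: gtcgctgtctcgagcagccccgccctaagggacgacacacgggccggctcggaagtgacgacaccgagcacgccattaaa
Rps16: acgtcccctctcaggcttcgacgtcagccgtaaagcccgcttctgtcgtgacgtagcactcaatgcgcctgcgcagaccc
Rpl28: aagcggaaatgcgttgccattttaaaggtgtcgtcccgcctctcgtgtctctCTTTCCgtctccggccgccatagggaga
Rpl38: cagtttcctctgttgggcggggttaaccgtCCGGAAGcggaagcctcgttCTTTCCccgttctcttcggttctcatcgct
Rps27: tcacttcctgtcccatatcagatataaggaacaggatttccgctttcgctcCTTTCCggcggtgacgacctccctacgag
Rps21: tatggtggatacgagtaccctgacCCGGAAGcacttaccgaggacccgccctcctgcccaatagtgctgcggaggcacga
Rpl37: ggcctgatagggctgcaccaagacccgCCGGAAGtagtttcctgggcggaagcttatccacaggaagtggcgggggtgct
Rpl7l1: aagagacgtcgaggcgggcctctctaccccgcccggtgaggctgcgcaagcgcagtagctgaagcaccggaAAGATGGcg
These lie at chr1:72711210-72711289 (plus strand), chr10:128549139-128549218 (minus strand), chr7:28350639-28350718 (plus strand), chr7:4792915-4792994 (plus strand), chr11:114668530-114668609 (plus strand), chr3:90213619-90213698 (minus strand), chr2:180257329-180257408 (plus strand), chr15:5116563-5116642 (plus strand) and chr17:46782627-46782706 (minus strand), in the order printed. The windows of Rpl37a, Rpl41 and Rps16, which were among the most strongly lowered genes, held none of the marked letters. The Rpl37a window lies wholly upstream of that gene's GENCODE start, given below, so letters after that start are not covered by it. Rpl28, Rpl38 and Rps27 carried CTTTCC within a few bases of the start, Rpl38, Rps21 and Rpl37 carried CCGGAAG upstream of it, and the Rpl7l1 window held AAGATGG near its end. Rps21 is shown for the first of its 2 annotated starts.

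Library depth ran from 1543208 to 2239073 reads. Ribosomal protein genes took a share of those reads that differed by tissue: 0.921% to 1.57% in the 20 liver libraries and 1.11% to 4.84% in the 19 gWAT libraries. Rows with symbols marked as pseudogenes, which near-identical reads can reach, held the equivalent of 5.71% to 9.41% of the members' reads. Copies under other symbols are not in this figure. Single-gene values of members with processed copies are therefore uncertain by the route of near-identical reads. Summed adipocyte markers ran from 17591 to 63459 normalized counts in gWAT libraries and from 14.2 to 265 in liver libraries, on scales set per table. Markers of other tissues stood out in several libraries. They were those of skeletal muscle in male liver nicotine 4 and female gWAT control 2. At lower sums these stood out in female gWAT nicotine 2, nicotine 5 and control 1. They did so too in male gWAT control column 4 and in female liver nicotine 5 and control 4. Exocrine pancreas markers were high in male liver nicotine 2. Ovary or reproductive tract markers were high in female gWAT control 4, female liver nicotine 5 and male liver control 2. Of the 7 markers in that list, only 2 were in the female gWAT table and 3 in each liver table. Amh, Inha, Cyp19a1 and Pax8 were in none of these, so the sums rest on few genes and do not identify ovary. Epididymis markers were present in all male gWAT libraries and highest in nicotine 1 and control column 1, and hepatocyte markers were highest among gWAT libraries in male nicotine 1.

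**Figure D1:**
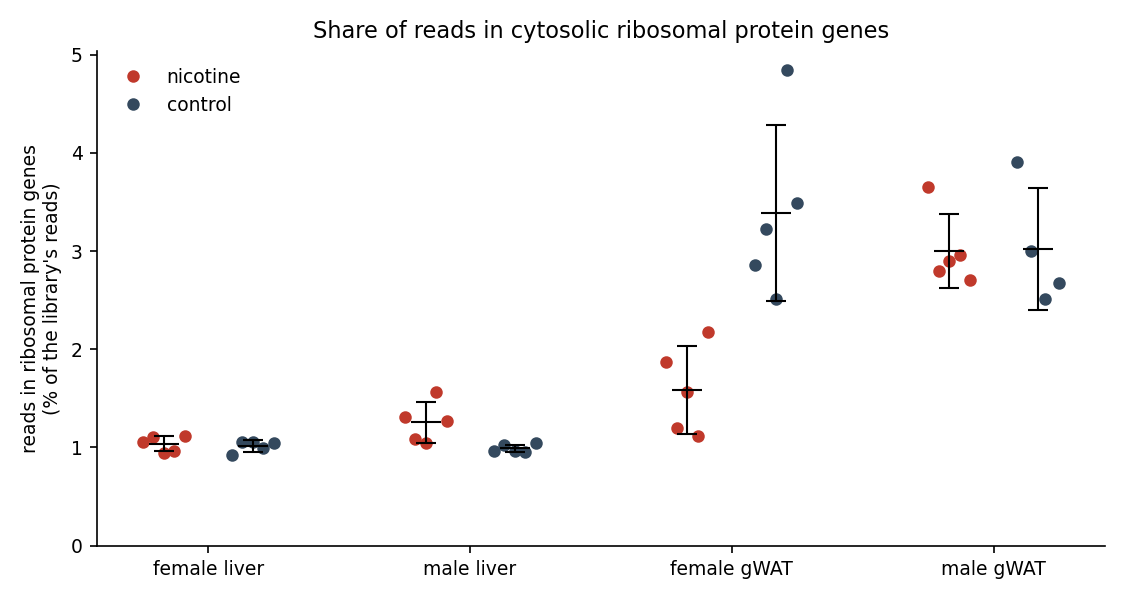
Percent of each library's reads in cytosolic ribosomal protein genes (vertical axis) for the 4 tables, nicotine libraries in red and control libraries in dark blue. Points are libraries, and bars are the mean and SD. In female gWAT the 5 nicotine libraries sit between 1.11% and 2.17% and the 5 control libraries between 2.51% and 4.84%.

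Female gWAT was the table in which ribosomal protein transcripts were lower in offspring of nicotine-exposed fathers. They made up 1.87%, 1.19%, 1.56%, 1.11% and 2.17% of the reads of nicotine libraries 1 to 5, against 2.86%, 3.22%, 2.51%, 4.84% and 3.49% in control libraries 1 to 5. The groups did not overlap, control 4 was the highest and nicotine 4 the lowest. The 95% Wilson interval, which covers counting error only, was 1.10% to 1.13% for nicotine 4 and 4.81% to 4.88% for control 4, narrow beside the spread between libraries. Of the 82 members, 39 were called lower and 1 higher by limma at an adjusted p of 0.05 over all 10532 genes tested, and 42 were not called. Of all tested genes, 12.8% were called lower and 12.4% higher. The members' median log2 change was -0.61, against -0.03 for all genes, and 78 of 82 had a lower nicotine mean on the log2 scale, while 5101 of all 10532 genes had a higher one. In 22 members all 5 nicotine libraries lay below all 5 controls, and in 1 above, where 8.19% and 8.48% of all genes did so.

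Genes of both subunits were among those called lower. Of 43 large subunit genes 20 were called lower and none higher, with a median log2 change of -0.60. Of 31 small subunit genes 18 were called lower and none higher, with a median of -0.73. None of the 3 P stalk genes was called, and of 5 tested paralogs Rps27l was lower and Rpl7l1 higher. Large subunit genes took a slightly larger part of the members' reads in nicotine libraries, 50.3% to 51.4% with a mean of 50.7%. In control libraries they took 47.1% to 50.5%, with a mean of 48.8%.

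**Figure D2:**
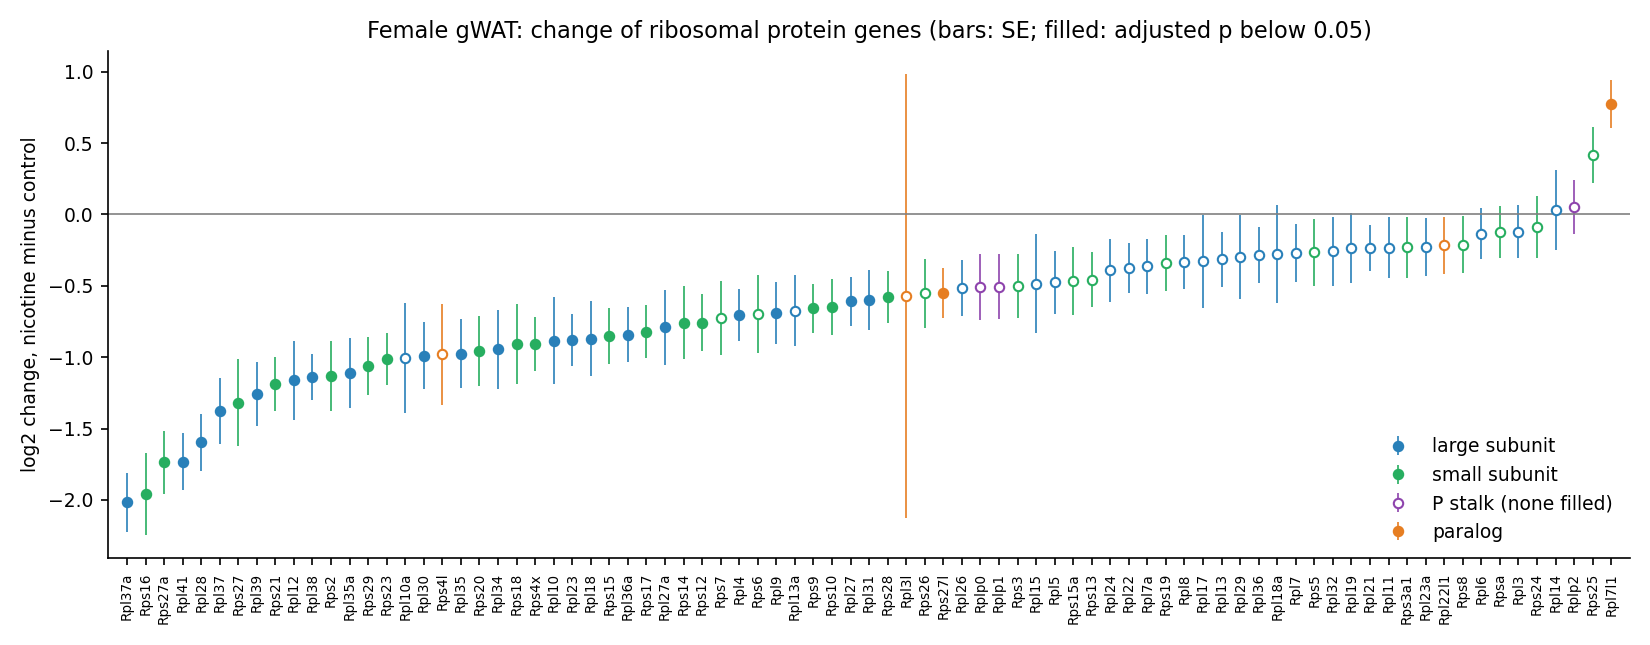
Log2 change (nicotine minus control, vertical axis) of 81 of the 82 ribosomal protein genes in female gWAT, ranked from lowest to highest and coloured by subunit. Points are limma estimates with their SE, and filled points have an adjusted p below 0.05. The order runs from Rpl37a at -2.02 to Rpl7l1 at 0.77.

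Among large subunit genes the lowest values relative to control were those of Rpl37a, a zinc-binding protein of the ribosome core. Rpl37a (chr1:72711290-72713813 in GRCm38) had normalized counts of 553, 408, 426, 275 and 514 in nicotine libraries, against 2300.2, 1977, 1356, 1637 and 1479 in control libraries. Every nicotine library lay far below every control, and the nicotine mean was 24.9% of the control mean (log2 change -2.02 ± 0.21 (SE), limma adjusted p = 5.79e-05). Rpl41, which encodes a very short basic peptide at the interface of the subunits, had 197, 146, 198, 139 and 215 in nicotine libraries, against 714, 546, 394, 756 and 609 in control libraries. The groups were again apart, at 29.7% of the control mean (log2 change -1.73 ± 0.20 (SE), limma adjusted p = 0.000109). Rpl28, a large subunit protein whose start is shown above, had 134, 135, 175, 106 and 194 in nicotine libraries, against 458, 491, 319.7, 577 and 405 in control libraries. Control 4 was its highest library and nicotine 4 its lowest, with no overlap (log2 change -1.59 ± 0.20 (SE), limma adjusted p = 0.000197).

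Rpl38, whose loss in mice disturbs skeletal patterning, had 376, 313, 325, 286 and 379.7 in nicotine libraries, against 849, 811, 562, 856 and 656 in control libraries. The nicotine libraries lay close together and below every control (log2 change -1.14 ± 0.16 (SE), limma adjusted p = 0.000411). Rpl37, another zinc-binding core protein, had 856, 673, 812, 512 and 1297 in nicotine libraries, against 2376, 2175, 1549, 2568 and 1813 in control libraries. Its nicotine library 5 came close to control 3 without reaching it (log2 change -1.38 ± 0.23 (SE), limma adjusted p = 0.00108). Rpl39, which lines the tunnel through which the new protein leaves, averaged 225 ± 67.2 in nicotine libraries against 541 ± 165 in control libraries (SD, n = 5 each; log2 change -1.26 ± 0.22 (SE), limma adjusted p = 0.00147). Rpl12, at the base of the stalk, and Rpl10, which joins late in large subunit assembly, changed by -1.16 ± 0.28 and -0.88 ± 0.30 on the log2 scale with limma adjusted p = 0.00797 and 0.0454.

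Small subunit genes showed the same direction. Rps27a, which encodes a ribosomal protein fused to ubiquitin, had 801, 505, 577, 471 and 686 in nicotine libraries, against 2233, 2091, 1341, 3008 and 1659 in control libraries. No nicotine library reached the lowest control (log2 change -1.74 ± 0.22 (SE), limma adjusted p = 0.000207). Rps16, whose tail touches the transfer RNA in the peptidyl site, had 260.3, 213, 268, 106 and 346 in nicotine libraries, against 845, 942, 659, 1396 and 673 in control libraries. Nicotine 4 was lowest and control 4 highest, and the groups did not overlap (log2 change -1.96 ± 0.29 (SE), limma adjusted p = 0.00049). Rps21, a short protein of the small subunit, had 1803, 1407, 1467, 1124 and 1775 in nicotine libraries, against 3506, 3834, 2929, 4279 and 2708 in control libraries. The groups were apart (log2 change -1.19 ± 0.19 (SE), limma adjusted p = 0.000803).

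The decoding-centre protein Rps23 averaged 267 ± 58.6 in nicotine libraries against 538 ± 104 in control libraries (log2 change -1.01 ± 0.18 (SE), limma adjusted p = 0.00158). The zinc-binding Rps29 averaged 1259 ± 336 in nicotine libraries against 2574 ± 394 in control libraries (log2 change -1.06 ± 0.20 (SE), limma adjusted p = 0.00241). Rps4x, an X-linked gene, averaged 115 ± 16.9 in nicotine libraries against 222 ± 58.1 in control libraries (log2 change -0.91 ± 0.19 (SE), limma adjusted p = 0.00389). All 3 had every nicotine library below every control library (SD over 5 libraries a group). Rps27, a zinc-finger protein, had 489.6, 359.8, 396, 259.6 and 696 in nicotine libraries, against 917, 868, 1011, 2233 and 681 in control libraries. Here nicotine 5 reached the lowest control and control 4 stood above the rest (log2 change -1.32 ± 0.31 (SE), limma adjusted p = 0.00713).

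Other well-known members did not pass the test. Rps6, the substrate of the S6 kinases, had a log2 change of -0.70 ± 0.27 (SE; limma adjusted p = 0.0755). The P stalk, which recruits elongation factors, gave -0.51 ± 0.23 for Rplp0, -0.51 ± 0.23 for Rplp1 and 0.05 ± 0.19 for Rplp2, with adjusted p = 0.119, 0.119 and 0.861. Rpl5 and Rpl11, which together bind the p53 regulator Mdm2, gave -0.48 ± 0.22 and -0.23 ± 0.21, with adjusted p = 0.131 and 0.451. Rpl3, at the peptidyl transferase centre, and Rpsa, also known as the laminin receptor, gave -0.12 ± 0.19 and -0.13 ± 0.18 with adjusted p = 0.671 and 0.65. Rps3 (-0.50 ± 0.22, adjusted p = 0.114), Rpl13a (-0.67 ± 0.25, adjusted p = 0.0619) and Rpl17 (-0.33 ± 0.32, adjusted p = 0.478) were not called either. The threshold fell between Rpl31, the last member called at adjusted p = 0.049, and Rps7, the first not called at 0.0514.

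Of 5 tested paralogs of ribosomal protein genes, 4 had a lower nicotine mean and 1 a higher one, with a median log2 change of -0.55. The lowest change among them was that of Rps4l, at -0.98, which was not called. Rpl7l1, a nucleolar relative of Rpl7 that acts in large subunit assembly, had 83.7, 78.5, 82.7, 97.4 and 96.6 in nicotine libraries, against 44.1, 50.4, 42.8, 58.6 and 60.5 in control libraries. It was the only member called higher, with no overlap (log2 change 0.77 ± 0.17 (SE), limma adjusted p = 0.00484), and it lost the call when libraries were scaled to their total reads. Rps27l, a relative of Rps27 induced by p53, averaged 143 ± 20.3 in nicotine libraries against 212 ± 48.5 in control libraries (SD, n = 5 each; log2 change -0.55 ± 0.18 (SE), limma adjusted p = 0.035). Rpl22l1, a relative of the RNA-binding Rpl22, gave -0.22 ± 0.20 (adjusted p = 0.448), and Rpl22 itself -0.37 ± 0.17 (adjusted p = 0.129). Rpl3l, the striated muscle form of Rpl3, had 0, 12.1, 0, 0 and 11.3 in nicotine libraries, against 8.82, 116, 0, 0 and 0 in control libraries. Its one high value was in control 2, the library with the highest skeletal muscle marker sum (18966). The other libraries with Rpl3l counts, nicotine 2, nicotine 5 and control 1, had the next highest sums (1118, 548 and 787).

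The members shared their high and low libraries. Control 4 was the highest of the 10 libraries for 73 of 82 members and nicotine 4 the lowest for 49. Without control 4 the count was 28 lower and 1 higher, where 9.84% of all genes were called lower. Without controls 2 and 4 it was 20 lower and 1 higher with a median log2 change of -0.43, where 7.35% of all genes were called lower (chosen after seeing the data). These controls had the highest skeletal muscle and reproductive tract marker sums, respectively, of the 10 libraries, the latter from 2 of 7 listed markers. Nicotine 2, nicotine 5 and control 1, with muscle marker sums of 1118, 548 and 787, stayed in that fit. Leaving out each library in turn gave 28 to 43 members called, and 28 of the 40 kept their call in all 10 of these fits. In the fits with 28 and 43, 1946 and 2505 of all genes were called, against 2656 in the main fit. Scaled to total reads, 59 members were called lower and none higher, with a median of -0.95, where 25.1% of all genes were called lower and their median shifted to -0.36. The authors' deposited table called 38 members lower and 1 higher, 39 of them also called here, where it called 9.97% and 8.97% of all its tested genes.

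The members' transcripts are short, with a median length of 768 nucleotides (GENCODE M21) against 2867 for the other tested genes, and short transcripts of other kinds were also lower in female gWAT. Below 500 nucleotides 11 of 14 members were called lower with a median log2 change of -0.83, and 22.7% of 229 other genes with a median of -0.52. From 500 to 700 nucleotides it was 12 of 21 members and 29.0% of 214 other genes. From 700 to 1000 nucleotides it was 9 of 27 members (33.3%) and 23.6% of 458 others, and from 1000 to 2000 nucleotides 6 of 16 members (37.5%) and 16.0% of 2132 others. Other genes of 4000 nucleotides or more had a median of 0.13. When the dependence of each library's values on length and base composition was removed, 22 members were called lower and 2 higher, where 9.63% of all genes were called lower. In that fit 59 of 82 had a lower nicotine mean, and the members' median was -0.27 against 0.03 for all genes (chosen after seeing the data). Among the members, log2 change and length had a Spearman correlation of 0.22 over 82 genes of the same libraries.

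**Figure D3:**
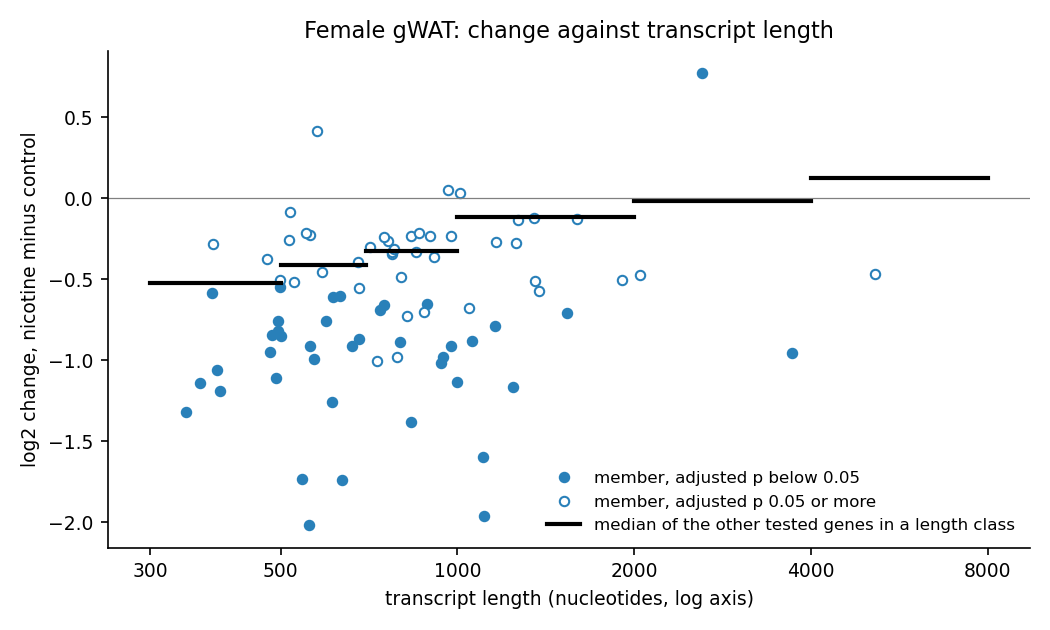
Log2 change in female gWAT (nicotine minus control, vertical axis) against transcript length in nucleotides (log axis) for the 82 ribosomal protein genes, filled where the adjusted p is below 0.05. Black lines are the medians of the other tested genes in 6 length classes, the outer classes being those below 500 and from 4000 nucleotides, and they climb from -0.52 to 0.13.

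Mitochondrial ribosomal RNA and the summed macrophage and mesothelial markers also separated the groups in female gWAT. The fibroblast, adipocyte and endothelial sums overlapped. Mitochondrial ribosomal RNA took 32.5%, 31.5%, 19.3%, 31.8% and 20.3% of reads in nicotine libraries 1 to 5, against 12.7%, 9.91%, 12.4%, 13.0% and 8.23% in controls 1 to 5. Summed macrophage markers ran from 142 to 288 normalized counts in nicotine libraries and from 493 to 923 in controls, with all 4 tested markers of 8 called lower (Cd163, Csf1r, C1qa and Adgre1) and Clec4f not in the table. Summed fibroblast markers ran from 1744 to 5741 in nicotine libraries and from 3674 to 7809 in controls, with Pdgfra and Dcn of 4 called lower. Of 3 mesothelial markers Upk3b and Msln were called lower, and of 6 adipocyte markers Plin1 was called higher. The adipocyte sum ran from 20704 to 32385 in nicotine libraries and from 22135 to 49311 in controls. The endothelial sum ran from 751 to 1447 in nicotine libraries and from 477 to 1099 in controls, with none of 3 markers called. The part of these differences in the ribosomal protein result was not tested. Scaled to total reads without mitochondrially encoded genes, 32 members were called lower and 1 higher, where 11.7% of all genes were called lower.

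Genes that work with the ribosomal proteins split in female gWAT. Rpl36al, a large subunit gene outside the symbol rule, averaged 67.5 ± 10.8 in nicotine libraries against 113 ± 36.5 in control libraries (SD, n = 5 each; log2 change -0.69 ± 0.22 (SE), limma adjusted p = 0.0322). Fau, which encodes a small subunit protein fused to a ubiquitin-like one, gave 0.01 ± 0.19 (adjusted p = 0.984), and the ribosome-bound scaffold Rack1 -0.25 ± 0.29 (adjusted p = 0.544). Of 22 other TOP and translation genes 5 were called lower and 2 higher, with a median log2 change of -0.31. Gas5, a non-coding TOP transcript that hosts small nucleolar RNAs, averaged 373 ± 113 in nicotine libraries against 1013 ± 152 in control libraries (log2 change -1.48 ± 0.20 (SE), limma adjusted p = 0.000284). The elongation factor Eef2 averaged 928 ± 154 in nicotine libraries against 1661 ± 319.6 in control libraries (log2 change -0.83 ± 0.18 (SE), limma adjusted p = 0.00419), and Eef1b2, Eif4b and Hnrnpa1 were lower too. Pabpc1, the poly(A)-binding protein, averaged 1071 ± 243 in nicotine libraries against 625 ± 206 in control libraries (log2 change 0.81 ± 0.22 (SE), limma adjusted p = 0.0182) and Nap1l1 was also higher. Eef1a1 and Tpt1 gave -0.42 ± 0.17 and -0.34 ± 0.19, with adjusted p = 0.0901 and 0.192.

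Among ribosome assembly factors more genes were called higher than lower. Of 39 tested, 9 were called higher and 1 lower, with a median log2 change of 0.18. Nop14, a small subunit processome protein, averaged 83.8 ± 12.7 in nicotine libraries against 35.7 ± 10.6 in control libraries (log2 change 1.25 ± 0.22 (SE), limma adjusted p = 0.00142). Nop56, a core protein of box C/D small nucleolar ribonucleoproteins, averaged 32.4 ± 9.51 in nicotine libraries against 10.6 ± 5.03 in control libraries (log2 change 1.62 ± 0.37 (SE), limma adjusted p = 0.00615). Nolc1, Riok1, Utp20, Pes1, Gnl3, Rcl1 and Mrto4 were also higher, while Rrs1, which acts in large subunit assembly, averaged 88.2 ± 21.1 in nicotine libraries against 175 ± 43.7 in control libraries (log2 change -0.99 ± 0.22 (SE), limma adjusted p = 0.00606). The nucleolar proteins Ncl, Npm1 and Fbl gave 0.04 ± 0.16, -0.08 ± 0.23 and -0.63 ± 0.40, with adjusted p = 0.871, 0.835 and 0.257. None of 9 RNA polymerase I genes was called. Of 18 mTORC1 pathway genes, the S6 kinase gene Rps6kb1 averaged 256 ± 50.3 in nicotine libraries against 143 ± 14.7 in control libraries (log2 change 0.82 ± 0.17 (SE), limma adjusted p = 0.00318), Deptor was also higher, Sesn1 was lower, and Larp1 gave 0.41 ± 0.16 (adjusted p = 0.0805). These lists are read against the 12.4% of all genes called higher and the 12.8% called lower.

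In male gWAT no member was called and the shares of the groups overlapped. The members took 3.65%, 2.80%, 2.90%, 2.96% and 2.70% of reads in nicotine libraries 1 to 5, against 3.90%, 3.00%, 2.51% and 2.68% in the 4 control columns. The highest library of each group, nicotine 1 and control column 1, was also the highest in epididymis markers (summed counts of 14734 and 20226, against 1232 to 3037 in the other nicotine libraries and 168 to 3467 in the other controls). None of the 83 members was called by limma (0.0% of 11210 genes were), none had an unadjusted p below 0.05 where 1.62% of all genes did, and edgeR and DESeq2 also called none. The median log2 change was 0.04 with 52 members higher and 31 lower. It was 0.16 without control column 1 and -0.04 without nicotine 1. Without both it was 0.08 with 59 members higher and 24 lower, and once length and GC trends were removed it was -0.08 with 27 members higher (both chosen after seeing the data).

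The leading genes of female gWAT lay within the spread of the male libraries. Rpl37a had 2834, 1479.7, 1345, 934 and 2443 in nicotine libraries, against 2372, 2005, 1026 and 703 in control libraries in males. The groups overlapped over nearly their whole range (log2 change 0.29 ± 0.42 (SE), limma adjusted p = 1). Rpl24, a large subunit protein that bridges the subunits, had the smallest p of any member, with 224, 121, 154, 240.2 and 156 in nicotine libraries, against 157, 127, 123 and 151 in control libraries. The difference was within the spread of the libraries (log2 change 0.32 ± 0.22 (SE), limma adjusted p = 1). Rps6 gave -0.31 ± 0.25 and Rpl7l1 -0.18 ± 0.28, both with limma adjusted p of 1.

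**Figure D4:**
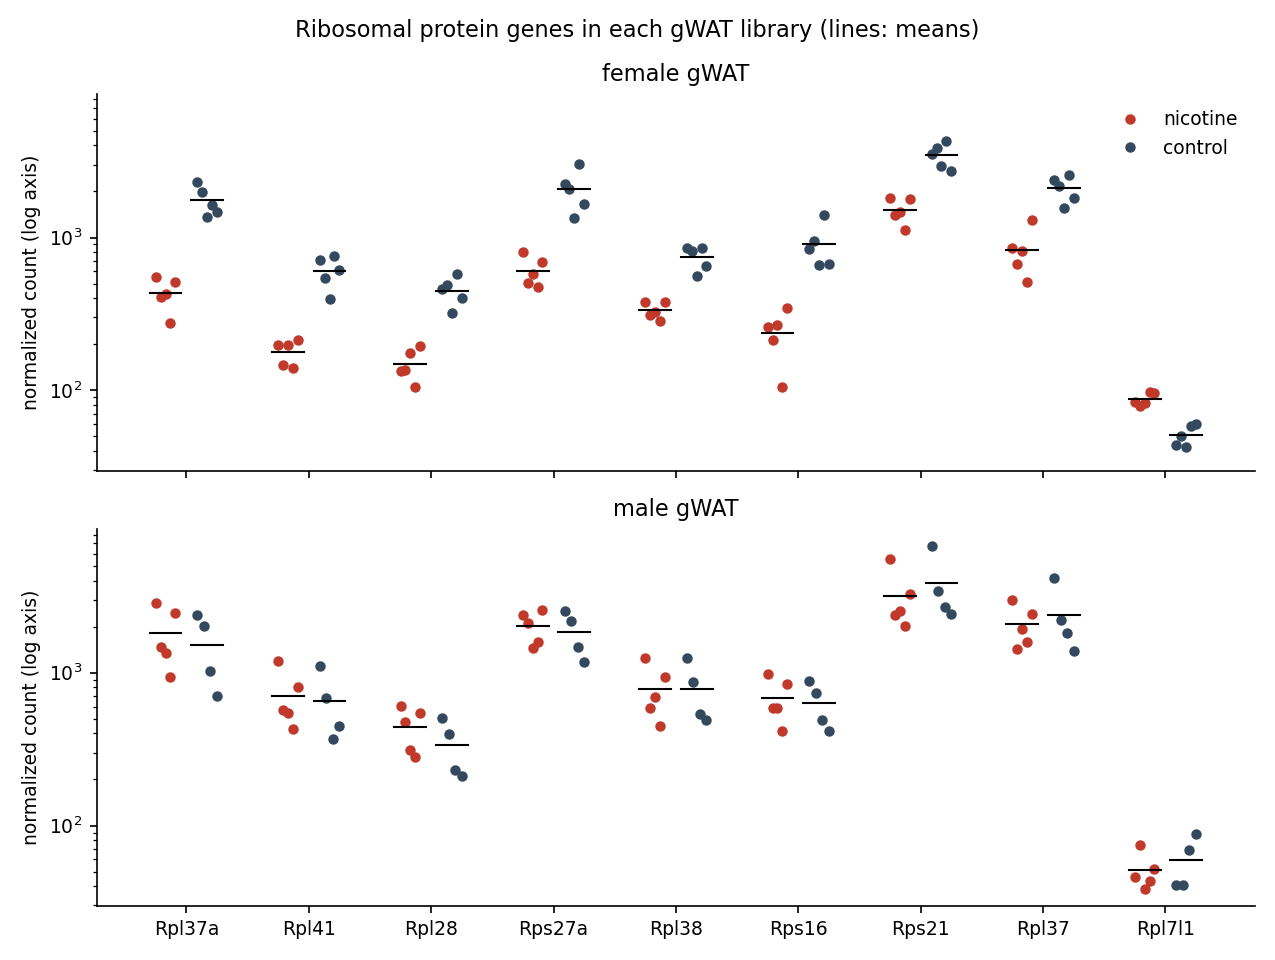
Normalized counts (log axis) of 9 ribosomal protein genes in each gWAT library, females above and males below, nicotine in red to the left of control in dark blue. Points are libraries and lines are means, and the 2 tables were scaled separately. In females the colours separate for every gene shown, with Rpl7l1 the one gene higher in nicotine libraries, and in males they overlap.

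The difference between the sexes in gWAT was tested by an interaction term, the change in males minus the change in females. It was called for 10 of the 82 members tested, all with the more positive change in males, where 4.43% of 10042 genes were called in that direction. For Rpl37a the log2 change was 0.29 in males and -2.02 in females, a difference of 2.31 ± 0.47 (SE, limma interaction, adjusted p = 0.00645). For Rps16 it was 0.11 in males and -1.96 in females, a difference of 2.07 ± 0.44 (SE, limma interaction, adjusted p = 0.00805). For Rpl28 it was 0.42 in males and -1.59 in females, a difference of 2.02 ± 0.38 (SE, limma interaction, adjusted p = 0.00417), for Rps27a 0.17 in males and -1.74 in females, a difference of 1.90 ± 0.36 (SE, limma interaction, adjusted p = 0.0044), and for Rpl41 0.16 in males and -1.73 in females, a difference of 1.89 ± 0.42 (SE, limma interaction, adjusted p = 0.0103). These 5 kept the call in all 19 fits that left out 1 library. Rpl23, Rpl39, Rps15, Rpl12 and Rps2 were the other 5, with differences from 0.96 to 1.31. The count was 26 without male control column 1 (25 of them more positive in males) and 16 without female nicotine 5. It was 6 without male control column 3 and 5 without male control column 4. The calls among all 10042 genes moved the same way, at 1116, 955, 521 and 447 in these fits against 891 in the main fit.

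In male liver the members lay slightly higher after paternal nicotine, and none passed the limma test. They took 1.31%, 1.09%, 1.05%, 1.57% and 1.27% of reads in nicotine libraries 1 to 5, against 0.957% to 1.04% in the 5 controls, so the shares did not overlap. Nicotine 1 and 5, with 2 of the 3 highest shares, also stood apart in other measures. Their summed hepatocyte markers were 51884 and 52359, against 67887 to 83934 in the other 8 male liver libraries. Their male-biased liver genes summed to 5918 and 9927, against 21657 or more in the others, and their female-biased liver genes to 334 and 230.1, against at most 33.2. Summed fibroblast markers were 1537 and 1329 in these and 1303 in nicotine 4, against at most 659 in the rest. The part of these differences in the shares was not tested. The summed normalized counts of the members did overlap, at 19503, 20499, 20225, 31466 and 19606 in nicotine libraries 1 to 5 and 17470 to 20202 in controls. Of 81 members 78 had a higher nicotine mean, where 4547 of 9093 tested genes did, and the median log2 change was 0.24 against 0.00 for all genes. No member was called by limma, where 0.055% of all genes were, and 14 had an unadjusted p below 0.05 where 14.5% of all genes did. Of the alternatives, edgeR called none and DESeq2 called Rpl17. The authors' deposited table called Rpl17 higher and no other member. Nicotine 4, the library with skeletal muscle markers (summed counts of 4862, against 0 to 5.89 in the other nicotine libraries), was the highest of the 10 for 67 of 81 members. Without it the median was 0.10 with 69 members higher. Without nicotine 1 and 5 the median was 0.35 with 78 higher, and 34 members had an unadjusted p below 0.05 where 12.1% of all genes did. Scaled to total reads it was 0.35 with all 81 higher, and 38 had an unadjusted p below 0.05 where 14.6% of all genes did and the median of all genes was 0.11. None of these fits called a member. Without nicotine 1, 4 and 5 the median was 0.17 with 68 higher (chosen after seeing the data). Without nicotine 2 and 4 it was 0.09 with 62 higher, and with length and GC trends removed 0.11 with 65 higher (both chosen after seeing the data).

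Rpl17, which sits at the exit tunnel, had 199, 207, 224, 271 and 152 in nicotine libraries, against 133, 140.3, 105, 166 and 132 in control libraries in male liver. Only nicotine 5 fell within the control range (log2 change 0.63 ± 0.17 (SE), limma adjusted p = 0.144). Rpl10 had 75.0, 93.3, 116, 97.3 and 85.2 in nicotine libraries, against 59.3, 74.9, 54.1, 68.5 and 56.0 in control libraries, and its groups did not overlap, nicotine 1 lying just above control 2 (log2 change 0.57 ± 0.15 (SE), limma adjusted p = 0.146). Rpl13a had 357, 303, 276, 512 and 301 in nicotine libraries, against 241, 256, 206, 225 and 257 in control libraries. Its groups did not overlap and nicotine 4 stood apart (log2 change 0.53 ± 0.16 (SE), limma adjusted p = 0.192). Rpl12 gave 0.53 ± 0.16, with adjusted p = 0.188. In 5 members, Rpl10 and Rpl13a among them, all nicotine libraries lay above all controls, where 1.31% of all genes did. The 3 members with lower means were Rps10 (-0.08 ± 0.14), Rpl22 (-0.08 ± 0.16) and Rpl22l1 (-0.03 ± 0.15), and scaling to total reads turned all 3 positive.

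In female liver the members were divided, 37 higher and 44 lower, with a median log2 change of -0.01. Rpl17 was the single member called, where 1.61% of 9173 genes were called higher, and the authors' deposited table also called Rpl17 alone. It had 224, 177, 197, 269 and 224 in nicotine libraries, against 133, 159, 181, 174 and 120.1 in control libraries, and nicotine 2 overlapped control 3 (log2 change 0.51 ± 0.13 (SE), limma adjusted p = 0.0327). The call was lost in 6 of the 10 fits that left out 1 library, those without control 1, 2 or 5 or nicotine 1, 4 or 5, while the log2 change stayed between 0.42 and 0.52 in these 6. It was also lost without nicotine 5 and control 4, which held the highest skeletal muscle markers of the table (summed counts of 257 and 139, against at most 15.7 in the others). Rps2, a small subunit protein at the entry of the messenger RNA, gave 0.25 ± 0.08 and Rps6 0.47 ± 0.16, with limma adjusted p = 0.112 and 0.116. The smallest p among members with lower means was that of Rps9, at -0.32 ± 0.13 (adjusted p = 0.186). The genes lowest in female gWAT were near 0 here, with Rpl37a at -0.13 ± 0.11 and Rpl28 at 0.03 ± 0.13.

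Between the sexes in liver no member passed the interaction test, where 1.56% of 8699 genes did. Of the members 11 had an unadjusted p below 0.05, where 16.3% of all genes did, edgeR called none, and the median difference, male minus female, was 0.25, or 0.10 without male nicotine 4. The smallest p was that of Rps9, with a log2 change of 0.34 in males and -0.32 in females (limma interaction, adjusted p = 0.084).

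**Figure D5:**
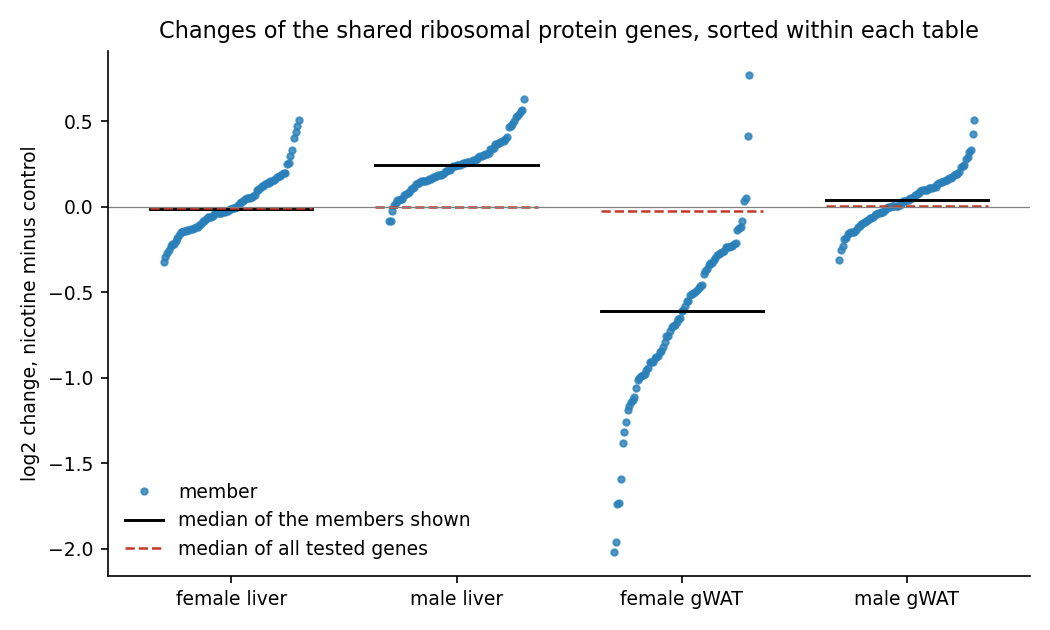
Log2 change (nicotine minus control, vertical axis) of the 81 ribosomal protein genes found in all 4 tables, sorted within each table. Blue points are genes, black lines their median and red dashed lines the median of all tested genes. In female gWAT all but 4 points lie below 0, and in male liver all but 3 lie above it.

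Set side by side, Rps21 changed by -0.15 ± 0.09 (female) and 0.08 ± 0.14 (male) in liver and by -1.19 ± 0.19 (female) and -0.25 ± 0.37 (male) in gWAT on the log2 scale. Rplp0 changed by -0.11 ± 0.10, 0.47 ± 0.18, -0.51 ± 0.23 and 0.14 ± 0.25 in the same order of tables. Of these 8 values, only Rps21 in female gWAT was called.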

How the data were processed

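Liver and gWAT of C57BL/6J offspring were profiled by 3′-tag RNA sequencing, with libraries made with an Illumina kit per the labels' protocols. Per the submitters' processing notes, the tools were cutadapt, STAR and DESeq2 and the build was mm10, with no roles or versions. How reads were assigned to genes, with which annotation and strand setting, is not given in the sources used here, so overlapping genes and near-identical copies cannot be separated. The authors deposited normalized counts, a signal scaled by 1 DESeq2 size factor per library in each of 4 tables, so comparisons stay inside a table. Fold changes on the log2 scale made by the authors, with standard errors (a score), p-values and adjusted p-values, stand beside them per the file headers. Whole reads were recovered in 100.0% of values within 0.1 reads. Depth was 1543208 to 2239073 reads.

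Each table was tested here with limma 3.58.1 (R 4.3.3; moderated variances following the mean expression) on log2(normalized count + 1). Genes averaging at least 10 entered, and p-values were adjusted by Benjamini-Hochberg over all of them at 0.05. A fold change on this scale understates the change of genes with low counts. An interaction term gave the difference between the sexes. Alternatives used edgeR 4.0.16, DESeq2 1.42.0, other pseudocounts, filters and scalings, the replicate number as a block, and fewer libraries. The code was tested on simulated data. Named genes were the members called (up to 12 by p), the 5 of smallest p each way, a fixed set of well-known members and related genes, and 3 per tissue by interaction p. The members and lists were chosen with earlier results of these data known, so they are not independent support. Promoters came from RefSeq (GRCm38.p6), and positions, lengths and GC content from GENCODE M21 (GRCm38) by symbol. No pair of libraries was identical or agreed within sampling noise. For male gWAT 5 control libraries had been planned for, and the 4 columns present were tested; their numbers are names only. Values of a few named genes are not reported here.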

Additional observations from a re-analysis of the deposited data

Results flagged for a closer look

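Among 56 sets of 4 or 5 libraries examined for a value far from the others, 3 held one, where chance alone gives about 1 in 20. In male gWAT, nicotine 1 had 3.65% of its reads in ribosomal protein genes, far above the other 4 nicotine libraries, and it held the highest epididymis marker sum of these 5. In female gWAT, Rpl39 had 342 normalized counts in nicotine 1, above the other nicotine libraries and below all controls. Rps23 had 720.04 in control 4 of female gWAT, above the other controls. Leaving out control 4 left Rps23 called.

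The change after paternal nicotine differed between the sexes in gWAT, by the limma interaction term, for 10 members. The difference of log2 changes, male minus female, was 2.31 for Rpl37a, 2.07 for Rps16, 2.02 for Rpl28, 1.90 for Rps27a, 1.89 for Rpl41, 1.31 for Rpl12, 1.26 for Rpl39, 1.23 for Rps2, 1.21 for Rpl23 and 0.96 for Rps15. The adjusted p-values are over all 10042 genes tested. The male table has 4 control columns, and epididymis markers summed to 1232 to 14734 normalized counts in its nicotine libraries and 168 to 20226 in its controls. Their part in these values was not tested.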

How the results depend on the processing

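In female gWAT the count of 40 called members became 24 with transcript length and GC trends removed and 21 without control libraries 2 and 4 (both chosen after seeing the data). The members' median of -0.61 became -0.27 with the trends removed and -0.95 with total-read scaling. The other alternatives gave 33 to 59 called, except the replicate block, which gave 29. Of the 40, 19 were called in all 13 alternatives and all 10 fits without 1 library. The calls among all genes moved too, from 2656 of 10532 in the main fit to 3125 with total-read scaling. They were 2011 with the replicate block, 1517 without control libraries 2 and 4, and 2201 of 9990 genes with the trends removed. In female liver the 1 call was lost without control 4 and nicotine 5 (0 members). In male liver DESeq2 called 1 member. Between the sexes in gWAT total-read scaling gave 31, where 1210 of 10042 genes were called against 891 in the main fit. Without 1 library at a time, the called members ranged from 28 to 43 in female gWAT and 0 to 2 in female liver. They ranged from 0 to 0 in male liver and male gWAT, 5 to 26 for the sex difference in gWAT and 0 to 1 in liver. In the fits with 28 and 43, 1946 and 2505 of all genes were called. In those with 5 and 26, 447 and 1116 were called. The members' medians ranged from -0.72 to -0.49 in female gWAT, -0.03 to 0.03 in female liver, 0.10 to 0.28 in male liver and -0.04 to 0.16 in male gWAT. Same-numbered libraries did not deviate together (correlations from -0.28 to 0.17), so the replicate block pairs only by number. It left 1 member called in female liver, 0 in male liver and 0 for the sex difference in liver. For male gWAT and the gWAT sex difference it was not run because the male control columns carry no label number. Causes of the shifts were not tested. At these depths, members near the mean of 10 have counts too low to show small changes.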
